A study of Mus musculus with 2 samples.

Results

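The hypoxia-induced and angiogenic genes described here are Hif1a, Epas1, Vegfa, Adm, Angptl4, Slc2a1, Egln3, Bnip3, Ndrg1 and Edn1, 10 of the 37074 gene names on the array. They were chosen by name, as every non-control probe that carries one of these gene names, which gave 15 probes. All 15 were well above background on both arrays, so no gene was lost to the filter on dim probes, and 8 of the genes had 1 probe each, Hif1a had 3 and Vegfa had 4. The noise sample was total RNA of cochlear tissue from 7-week-old female C57BL/6 mice whose cochleae were taken 3 hours after a 2-hour exposure to intense noise, and the baseline sample came from mice of the same strain, sex and age without noise exposure. Each group was a single 1-colour Agilent array. The number of mice behind a sample is not given in the sources used here. With 1 array per group there was no replicate error and no test across animals, so each difference below is between 2 samples and a size of 2-fold stands in for a threshold.

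When oxygen is plentiful, prolyl hydroxylases mark the alpha subunits of the hypoxia-inducible factors for breakdown. When it is scarce, the subunits persist, pair with ARNT and switch on genes for glucose uptake, blood vessel growth, vessel tone and mitophagy. Control of the alpha subunits is largely at the protein level, which an array of RNA does not measure. In the cochlea the capillary bed of the stria vascularis serves a tissue of high energy use, and cochlear blood flow is known to fall during loud sound.

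Both arrays were of similar brightness, with 75.3% of probes well above background after noise and 75.2% at baseline. Levels are given as the processed signal and as the scaled level, which is the signal divided by the 75th percentile of that array (316 for noise, 278 for baseline). Log2 ratios are noise minus baseline of the scaled levels. Repeat spots of a probe gave a log2 ratio an SD of 0.069, different probes of the same gene an SD of 0.27, and the scanner software's own error model an SD of 0.20 for most of the 15 probes. The gene lists used here and below were chosen with earlier results of these data known. Of 15 markers of cochlear cell types, all were measured on both arrays and 12 lay above 0, with a median log2 ratio of 0.24. Their summed scaled levels were 305.2 after noise and 305.2 at baseline. The bright gene Otos, with a scaled level of 113 after noise and 140 at baseline, weighed most in these sums. A level also depends on its probe, so levels of different genes are not set against each other.

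None of the 10 genes reached 2-fold, in either direction. Of the 26533 genes measured on both arrays, 1.86% were past 2-fold, 0.611% as higher after noise and 1.25% as lower. Of the 10, 8 had a log2 ratio above 0 and 2 below, Angptl4 at -0.96 and Vegfa at -0.54, and the highest was Edn1 at 0.57. The median of the 10 was 0.17, where that of all measured genes was -0.01 and 47.5% of all measured genes lay above 0. The cochlear markers also stood above all genes, with 12 of 15 above 0 and a median of 0.24. In 5 of the 10 genes (Hif1a, Epas1, Egln3, Bnip3 and Ndrg1) the ratio was smaller than the SD between probes of a gene. At 1.5-fold, 1 of the 10 was past the size rule, Angptl4 on the lower side, where 4.99% of all measured genes were, and none on the higher side, where 3.02% were (8.01% in both directions).

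**Figure D1:**
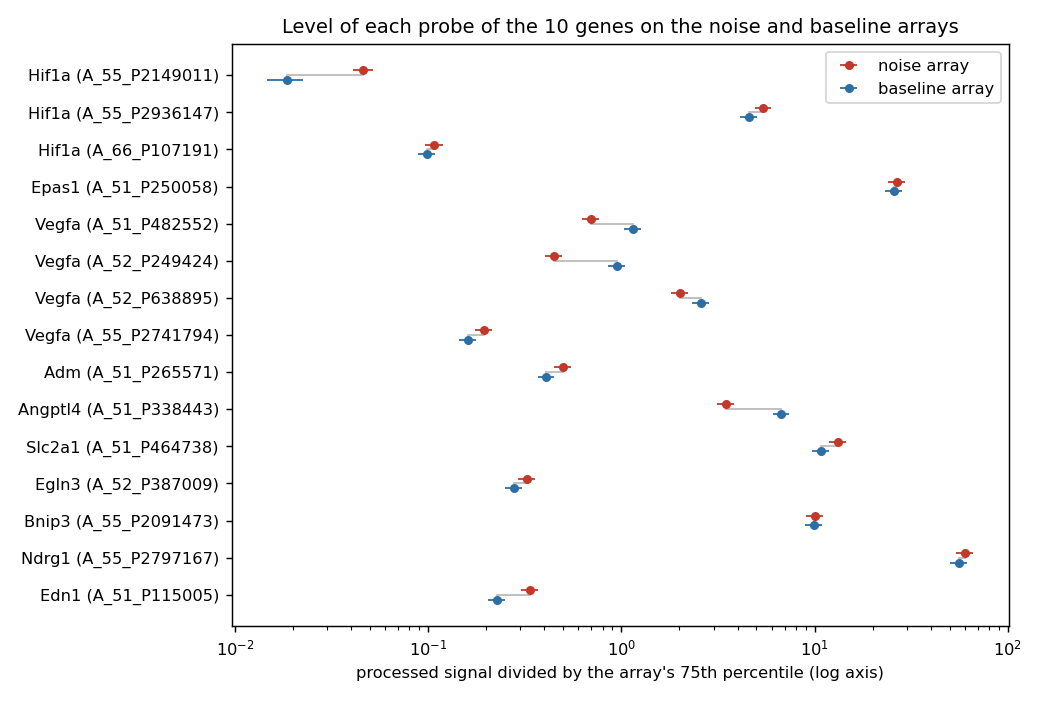
Scaled level (processed signal divided by the array's 75th percentile, log axis) of each of the 15 probes on the noise array (red) and the baseline array (blue), with bars for the error of the scanner software's model. The points of 11 probes lie higher for noise and those of 4 lower, with the widest gaps at Angptl4, at probes A_52_P249424 and A_51_P482552 of Vegfa and at the dimmest Hif1a probe.

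Hif1a encodes an oxygen-regulated alpha subunit found in most cells. Its probe for the RefSeq mRNA, A_55_P2936147 on chromosome 12 from 75047819 to 75047878 (mm9), had a signal of 1717 after noise and 1278 at baseline, which are scaled levels of 5.43 (noise) and 4.59 (baseline) and a log2 ratio of 0.24. The noise level was the higher one, by less than the SD between probes of a gene. The other 2 Hif1a probes were designed on cDNA clones and were dim.

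Probe A_55_P2149011, on the clone AK017853, had a signal of 14.6 after noise and 5.17 at baseline, a log2 ratio of 1.32 with an error-model SD of 0.35. It was the only one of the 15 probes at least 2-fold higher. The baseline signal was close to the lowest one called well above background there, 4.35. With another background correction (normexp) the log2 ratio of this probe was 0.05. That correction adds 50 to every signal, which pulls ratios of dim probes towards 0, so this value does not check the ratio. The same limit holds for the normexp values of dim probes below. Among the 3221 measured probes with a baseline signal under 10, 1.58% were at least 2-fold higher, against 0.615% of all measured probes.

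The remaining Hif1a probe, A_66_P107191, was designed on the clone AK048798 and lies on chromosome 12 from 75027538 to 75027597 (mm9), 20281 bases before the mRNA's probe. Its coordinates run against the strand of Hif1a. Coordinate order followed the RefSeq strand for 99.6% of 22569 probes for RefSeq mRNAs on the array, and 0.695% of the 25606 measured probes with both strands known ran against it. Its sequence, 5′ to 3′ as printed on the array, is shown because it reads the opposite strand under the Hif1a name:
Hif1a A_66_P107191: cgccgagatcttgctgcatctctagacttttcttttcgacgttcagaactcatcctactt
Its signal was 34.1 after noise and 27.5 at baseline, a log2 ratio of 0.13. The Hif1a value of 0.24, the median of its 3 probes, is therefore also the value of the mRNA's probe. With the normexp background the mRNA's probe was at 0.27, and the median, 0.05, was the value of the dim probe A_55_P2149011.

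Epas1 encodes a second oxygen-regulated alpha subunit, prominent in endothelium. Its probe, on chromosome 17 from 87232615 to 87232674 (mm9), had a signal of 8419 after noise and 7200 at baseline, which are scaled levels of 26.6 (noise) and 25.9 (baseline). The log2 ratio was 0.04, so that the levels differed by less than the SD between repeat spots.

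Egln3 encodes a prolyl hydroxylase that marks the alpha subunits and is itself a hypoxia-induced gene. Its signal was 102 after noise and 77.2 at baseline, a log2 ratio of 0.23. This lay within the SD between probes of a gene.

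Of the genes that act inside the cell or in its membrane, Slc2a1, a glucose transporter prominent in vessels that form a blood barrier, was the highest. Its scaled level was 13.3 after noise and 10.8 at baseline (signals of 4187 after noise and 2992 at baseline), a log2 ratio of 0.30, and 11.4% of measured genes had a higher one. Bnip3, a mitochondrial protein of mitophagy and cell death, had scaled levels of 10.1 after noise and 9.95 at baseline, a log2 ratio of 0.01. Both levels were nearly equal. Ndrg1, a stress-responsive protein also needed by myelinating Schwann cells, had scaled levels of 60.3 after noise and 55.7 at baseline (signals of 19054 after noise and 15508 at baseline), a log2 ratio of 0.11. Schwann cell and myelin markers stood at a median of 0.01, with 6 of 11 above 0 and summed scaled levels of 261 after noise and 292 at baseline, and their part in the Ndrg1 value was not tested.

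The secreted factors spread most, from the highest to the lowest of the 10 genes. Edn1, the precursor of the vasoconstrictor peptide endothelin, had a signal of 106 after noise and 63.0 at baseline, which are scaled levels of 0.337 (noise) and 0.226 (baseline). The log2 ratio of 0.57 is a 1.49-fold higher level after noise, and 847 of the measured genes (3.19%) had a higher one. The noise level was above the baseline level by more than the SD between probes of a gene. Adm, the precursor of the vasodilator adrenomedullin, had a signal of 158 after noise and 114 at baseline, a log2 ratio of 0.29.

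Vegfa, the main growth factor of blood vessels, was measured by 4 probes that did not run together. Probe A_52_P249424, the first along the gene, had a signal of 142 after noise and 264 at baseline, a log2 ratio of -1.08 and the only one of the 15 member probes at least 2-fold lower. Probe A_55_P2741794, 3153 bases downstream, had a signal of 61.3 after noise and 44.7 at baseline, a log2 ratio of 0.28. These probes thus lay on opposite sides of 0. With the normexp background, A_55_P2741794 was close to 0, at 0.07, and A_52_P249424 was at -0.84. The other 2 lie 6864 and 7989 bases downstream of the first. Probe A_51_P482552 had a signal of 219 after noise and 319 at baseline, a log2 ratio of -0.72, and probe A_52_P638895 had 634 after noise and 718 at baseline, a log2 ratio of -0.36. The noise level was the lower one in 3 of 4 probes.

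The range over the 4 probes, 1.36 in log2, was larger than in most genes: of 844 genes with exactly 4 measured probes, 17 (2.01%) had a larger one. The SD between the Vegfa probes was 0.58, and the median of that SD over the 1308 genes with at least 4 measured probes was 0.22. By the array's annotation, the first probe lists 4 RefSeq mRNAs and probe A_55_P2741794 lists 3, with none in common. Each of the 2 downstream probes lists 4 and shares 2 with either of them, so the listed transcripts do not place the downstream probes with one or the other. The probes with the lowest and the highest Vegfa ratio lie on chromosome 17 (mm9, minus strand) from 46162376 to 46162435 and from 46159226 to 46159282. The sequence of the highest, the one Vegfa probe above 0, is, 5′ to 3′:
Vegfa A_55_P2741794: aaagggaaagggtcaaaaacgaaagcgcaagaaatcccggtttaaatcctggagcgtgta
The Vegfa value of -0.54 is the median of the 4 probes. It is the mean of the middle 2 ratios and matches no single probe.

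**Figure D2:**
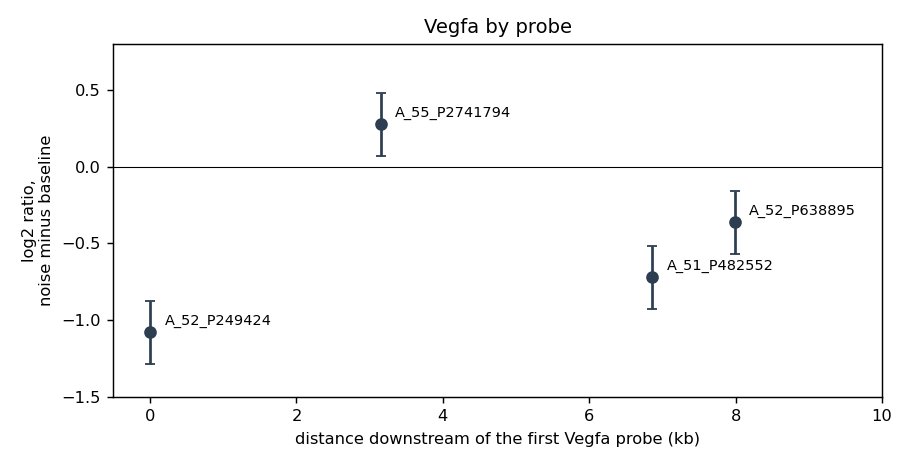
Log2 ratio (noise minus baseline) of the 4 Vegfa probes against their distance downstream of the first probe in kb, with the error-model SD as bars. The ratio does not run in 1 direction along the gene: it is -1.08 at the first probe, 0.28 at the second, then -0.72 and -0.36.

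Angptl4, a secreted inhibitor of lipoprotein lipase, is induced by hypoxia, by fatty acid receptors (PPARs) and by glucocorticoids, and is abundant in fat. Its probe, on chromosome 17 from 33911880 to 33911939 (mm9), had a signal of 1097 after noise and 1876 at baseline, which are scaled levels of 3.47 (noise) and 6.74 (baseline). The log2 ratio was -0.96, a 1.94-fold lower level after noise, and 372 of the measured genes (1.40%) had a lower one. Adipocyte markers were lower too: 18 of 20 lay below 0, 13 at least 2-fold lower, with a median of -1.30 and summed scaled levels of 55.2 after noise and 155.8 at baseline, and none of them was at background on both arrays. Among them the brown-fat gene Ucp1 stood at -2.81, with signals of 859 after noise and 5317 at baseline, and the adipokine gene Adipoq at -1.27. The part of adipocyte RNA in the Angptl4 value was not tested, and fewer cells of a type and less RNA per cell cannot be told apart in bulk tissue. Because the marker lists were chosen with earlier results of these data known, the adipocyte list is no independent support.

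Other genes with a known link to Angptl4 were uneven. In the list of lipase and PPAR genes 11 of 15 lay below 0, with a median of -0.18, which turned to 0.03 with spike-in scaling, where the median of all genes was 0.20. Lpl, the lipase that ANGPTL4 inhibits, was at -1.04 over 6 probes that ran from -1.46 to -0.06, the fatty acid transporter gene Cd36 at -0.84 and the fatty acid oxidation gene Acadm at -0.73. Lpl was under 2-fold with the normexp background (-0.64), with spike-in scaling (-0.82) and with its brightest probe (-0.89). The link of the glucocorticoid targets to the Angptl4 value was not tested, and 9 of 10 of the targets lay above 0, with a median of 0.57. Of these, 1 was at least 2-fold higher, Fkbp5, a partner of the glucocorticoid receptor, at 1.19, which was under 2-fold once dim probes were filtered more strictly (0.86) and with the normexp background (0.47).

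**Figure D3:**
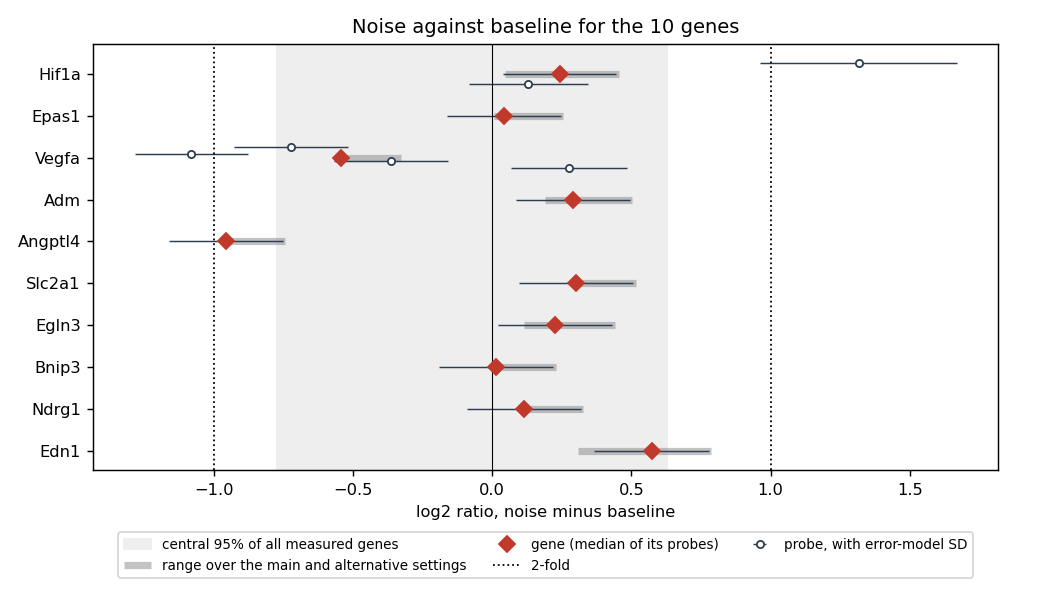
Log2 ratio (noise minus baseline) of the 10 genes. Red diamonds are the gene values, open points are probes with the error-model SD, grey bars are the range over the main and 9 alternative settings, the shaded band is the central 95% of all measured genes (-0.77 to 0.63) and dotted lines mark 2-fold. Angptl4 at -0.96 is the only gene value outside the shaded band, and no gene value or grey bar reaches a dotted line.

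The remaining genes of the pathway were set beside the 10 from 9 lists of 127 measured genes in all. Of these 127 genes, 3 were at least 2-fold higher and 2 at least 2-fold lower, with 72 above 0 and a median of 0.05. Over all measured genes, 0.611% were at least 2-fold higher and 1.25% at least 2-fold lower, and 47.5% lay above 0. Among 12 genes of the oxygen-sensing machinery none was past 2-fold, 7 lay above 0 and the median was 0.08. Hif3a, which encodes a further alpha subunit, was the furthest from 0, with a signal of 130 after noise and 63.6 at baseline, a log2 ratio of 0.85. It was past 2-fold with spike-in scaling (1.07) and at 0.53 with the normexp background. The prolyl hydroxylase gene Egln2 (0.50, and 0.32 from its brightest probe alone) and Hif1an, which encodes the asparaginyl hydroxylase of the alpha subunits (0.46), followed.

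The lists of hypoxia targets outside the 10 genes had a joint median of 0.03, with 19 of 35 measured genes above 0. Of 16 genes of glycolysis and glucose or lactate transport, 8 lay above 0 and 8 below, with a median of -0.02, and none was past 2-fold. Hexokinase gene Hk2 was the furthest from 0 at 0.36. Of 19 other hypoxia targets 11 lay above 0, with a median of 0.11. The clock-linked repressor gene Bhlhe40 was at 0.66 and the transferrin receptor gene Tfrc was lowest at -0.44, with probes at -0.87 and -0.01. The probes of Epo, the erythropoietin gene, were not well above background on either array.

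Angiogenic ligands other than Vegfa had a median of 0.02 with 7 of 14 above 0. Apln, which encodes the peptide apelin, was the 1 gene of this list past 2-fold, with a signal of 69.9 after noise and 179 at baseline, a log2 ratio of -1.54. It was past 2-fold in all 9 alternative settings, and the part of other tissues in its value was not tested. Cyr61, which encodes a matricellular protein, was at 0.60. Of 14 angiogenic receptors none was past 2-fold and the median was 0.06. The Vegfa receptor genes Kdr and Flt1 were at -0.07 and -0.01, that of Flt1 over 4 probes that ran from -0.73 to 0.33. Notch1 was highest at 0.57 (0.28 with the normexp background).

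The genes around the Edn1 and Adm peptides, a list of receptors, processing enzymes and related peptides such as Edn2, Calca and Calcb, were also all under 2-fold, with 7 of 12 measured genes above 0 and a median of 0.10 (-0.05 with the normexp background). The endothelin receptor genes Ednra and Ednrb were at -0.19 and -0.43, below 0, where Edn1 itself was above it. The converting enzyme gene Ece1 was at 0.13. Of the adrenomedullin receptor parts, Calcrl was at 0.33 and its partners Ramp2 and Ramp3 at 0.52 and -0.37. The probes of Edn3 and Adm2 were not well above background on either array.

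Paralogs of the 10 genes, which belong to the angiopoietin-like, NDRG and glucose transporter families, had a median of 0.09 with 10 of 15 above 0. Angptl7 was at least 2-fold higher, with a signal of 78.2 after noise and 28.6 at baseline, a log2 ratio of 1.27 that was 0.55 with the normexp background. The fructose transporter gene Slc2a5 was at -0.96 with signals of 11.6 after noise and 20.0 at baseline, and at -0.31 with the normexp background. It was left out under the stricter filter on dim probes. The glucose transporter gene Slc2a8 was at -0.90.

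Epas1, Edn1 and Adm are known to be expressed in vessel cells, so markers of these cells were set beside them. Endothelial markers had a median of 0.07, with 7 of 13 above 0, none past 2-fold and summed scaled levels of 49.6 after noise and 49.2 at baseline. Markers of pericytes and smooth muscle had a median of 0.07 with 5 of 9 above 0 and sums of 29.3 after noise and 30.0 at baseline. Within the endothelial list Cldn5, a tight junction gene of barrier vessels, was lowest at -0.81, with signals of 870 after noise and 1341 at baseline. Erythroid markers had a median of -0.07 and macrophage markers of 0.03. Markers of other tissues in the dissection mostly lay lower on the noise array: all 15 skeletal muscle markers lay below 0, 6 of them at least 2-fold lower (sums of 54.9 after noise and 77.9 at baseline), and 13 of 14 central neuron and glia markers lay below 0, 7 of them at least 2-fold lower (sums of 41.7 after noise and 79.4 at baseline). The remaining marker of that list, the Purkinje cell gene Pcp2, was at least 2-fold higher, at 1.60, with signals of 264 after noise and 76.5 at baseline. Single bright genes made up most of these sums. In the muscle sums it was Pvalb, with scaled levels of 42.5 after noise and 54.2 at baseline. In the central neuron and glia sums it was Aldoc, with 31.7 after noise and 59.3 at baseline. The part of these tissues in the values of the 10 genes was not tested.

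**Figure D4:**
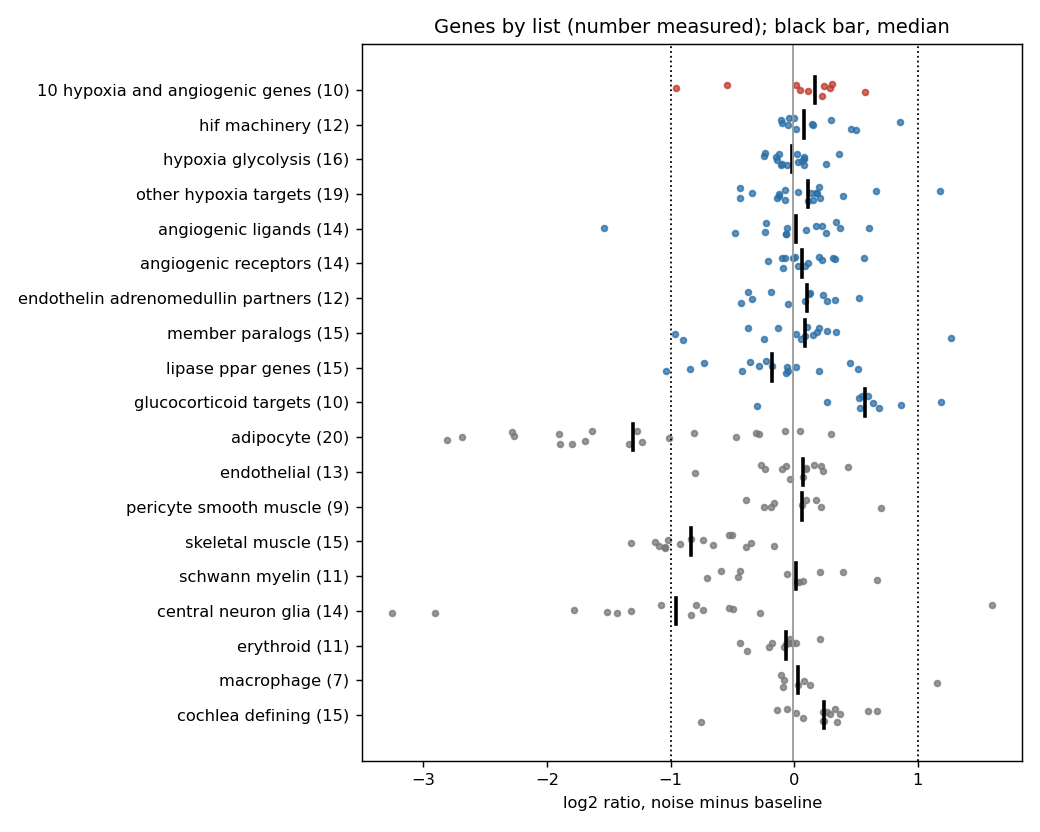
Log2 ratio (noise minus baseline) of every measured gene by list, with the number measured in brackets. Red is the 10 genes, blue the pathway lists, grey the cell type markers, black bars are list medians, the grey line is the median of all measured genes and dotted lines mark 2-fold. The adipocyte, skeletal muscle and central neuron and glia lists have medians of -1.30, -0.84 and -0.96, the glucocorticoid list one of 0.57, and the other lists, including the 10 genes, medians between -0.18 and 0.24.

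Hypoxia-inducible factors bind the letters ACGTG or GCGTG. Both were searched on both strands in RefSeq promoter windows (GRCm38.p6, 250 bases before to 50 after a gene's start), counting each strand. The motifs can share an end letter, and the letters CACGTG count as 2 matches, 1 on each strand. The table used here held 8 windows of 7 of the genes: Slc2a1, Adm, Bnip3, Egln3, Hif1a, Edn1 and Vegfa (2 windows). At least 1 match was found in 7 of the 8 windows, against 43.8% of all 32851 windows, and ACGTG in 6 of the 8, against 19.6%. The genes were picked by name as hypoxia-induced or angiogenic, so these shares are not a result of the 2 arrays. The windows compared were not matched for their content of letters. The window without a match was the upstream one of Vegfa, at chr17:46032328-46032627 (minus strand). The Vegfa window that held matches, 2 of them, lies downstream of it at chr17:46025114-46025413, at a start inside the gene. Its matches are therefore not letters upstream of the first Vegfa start, though the counts of 7 and 6 windows include this window. Whether they fall in coding sequence was not tested. A match describes the letters only and not a bound site.

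The windows shown are given with the matches in capitals: those of Edn1, which had the highest log2 ratio, and of Bnip3, which had the most matches. That of Edn1 lies at chr13:42301226-42301525 (plus strand) and that of Bnip3 at chr7:138909457-138909756 (minus strand).
Edn1: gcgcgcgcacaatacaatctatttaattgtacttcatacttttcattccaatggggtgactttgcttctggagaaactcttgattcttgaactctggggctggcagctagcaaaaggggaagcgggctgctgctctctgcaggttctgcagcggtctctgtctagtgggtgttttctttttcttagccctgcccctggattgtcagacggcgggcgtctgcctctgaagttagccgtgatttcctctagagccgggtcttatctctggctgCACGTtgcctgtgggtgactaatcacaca
Bnip3: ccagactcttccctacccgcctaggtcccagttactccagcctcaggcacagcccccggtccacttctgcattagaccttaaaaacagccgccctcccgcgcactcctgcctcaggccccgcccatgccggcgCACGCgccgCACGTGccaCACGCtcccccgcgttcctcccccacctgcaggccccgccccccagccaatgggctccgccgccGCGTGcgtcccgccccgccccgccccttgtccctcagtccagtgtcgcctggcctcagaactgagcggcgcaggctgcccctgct
Edn1 had 1 match, on the opposite strand, beginning at base 22 after the start, and a log2 ratio of 0.57. Bnip3 had 5, CACGTG counted as 2, of which the first begins 117 bases before the start, and a log2 ratio of 0.01.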

How the data were processed

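Spot intensity was read from the authors' deposited scanner output, made with Agilent Feature Extraction 11.5.1.1, per the file headers, which subtracted a background and detrended each array. Both arrays lay on 1 slide and were read in 1 scan. Flagged spots (60 noise, 58 baseline, of 59305) and controls were left out, and no spot was saturated. Repeat spots were averaged as log2, and each array's 75th percentile over 56604 probes was subtracted. A gene took the median log2 ratio of its probes well above background on both arrays (41659 probes). Values in the table that the authors deposited beside it are log2 and equalled log2 signal minus a constant per column (8.30 noise, 8.12 baseline), with column medians of -2.81 and -2.79 and no centring per gene, so that its direction and scale are those used here. The deposited flags for background and saturation were used as the scanner software scored them.

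Because each group had 1 array, no p-value was computed. The rule named all 10 genes, up to 3 genes of each pathway list by absolute ratio, genes past 2-fold, and the brightest or past-2-fold genes of marker lists. Kdr, Flt1, Ednra, Ece1, Calcrl, Epo, Edn3, Adm2 and Cldn5 were named after their values were seen, and a gene the rule takes is not reported here, with others left out for length. The genes, the 9 pathway lists and the 9 marker lists were chosen with earlier results of these data known. Alternatives were the normexp background (limma 3.58.1, offset 50), other filters, scalings, probe choice, flags kept and the value table. Error bars are the software's error model. The gene step was tested on simulated data. Python 3.11.15 was used. The number of arrays limits the precision.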

Additional observations from a re-analysis of the deposited data

How the results depend on the processing

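All 9 alternatives kept 8 of the 10 genes above 0 and 2 below, and none of the 10 past 2-fold. Angptl4 ran from -0.97 to -0.74, Vegfa from -0.55 to -0.33 and Edn1 from 0.31 to 0.79. With the 1.5-fold rule 1 gene, Angptl4, was past the size rule. Over all genes, the counts at least 2-fold higher and lower were 162 and 332, with 32.8% of them higher. They were 56 and 74 (43.1% higher) with the normexp background, 672 and 1296 when dim probes were kept, 118 and 192 with the stricter filter, 207 and 286 (42.0% higher) with quantile normalization and 340 and 189 (64.3% higher) with spike-in scaling, which moved the median of all genes to 0.20 and that of the 10 genes to 0.38. The 8 spike-in probes differed by -0.19 to 0.40 in log2 before scaling, so they fix the offset loosely. The medians of the skeletal muscle list (-0.52) and the central neuron and glia list (-0.57) were nearer 0 with the normexp background. Its offset of 50 shrinks ratios of dim probes more than those of bright ones. How much of the shift this made was not tested. Signals near background limit the dimmest Hif1a probe. No paired analysis was possible because no group held more than 1 array, and leaving out a replicate was not possible either.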
